A study of Mus musculus with 3 samples.

Results

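Sebocytes, the lipid-filled cells of the sebaceous gland, were examined in droplet single-cell RNA sequencing libraries of mouse back skin. They were chosen by a rule on raw counts of UMIs (unique molecular identifiers, 1 per captured transcript). The rule asked for at least 500 genes, at most 15% mitochondrial UMIs, at least 30 UMIs of Mgst1 plus Scd1, and at least 2 UMIs over Awat2, Cidea, Far2, Mc5r and Elovl3. It left out barcodes with any UMI of Adipoq or Ptprc, 5 or more of Krt71 plus Krt73, 20 or more of Krt1 plus Krt10, or more than 1 of Col1a2. It found 471 sebocytes among the 45846 barcodes that met the limits on genes and mitochondrial UMIs, out of 51191 barcodes in all. The 7 genes with a lower limit chose the cells, so their levels below are a description only.

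The CIA+VFX library came from mice of a chemotherapy-induced alopecia model that were also given venlafaxine, an antidepressant that blocks the reuptake of serotonin and noradrenaline. The CIA library came from mice of that model without venlafaxine, and the Cont library from mice given vehicle. All were female C57BL/6 mice aged 9 weeks, and in all 3 groups the sampled back skin had been depilated with wax strips. Skin of each group was pooled into a single library from mice whose number is not stated, so n = 1 per group: no p-value is given, and differences between groups have no replicate check. The chemotherapy drug, the doses and the day of sampling are not given in the sources used here.

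Sebaceous glands open into the upper hair follicle. Dividing cells at the gland's edge give rise to sebocytes that stop dividing, fill with lipid droplets and finally burst, which releases sebum, a mixture rich in wax esters, triglycerides and cholesterol esters. The nuclear receptor PPARγ, the sterol and lipid regulator SREBP1 and androgens are known to promote this lipid programme, and the melanocortin receptor MC5R is known to be needed for normal sebum in mice.

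The label was checked against 18 sebocyte markers, 7 of which the rule used. None was at 0 in any library, and their summed level was 17033 CPM in CIA+VFX, 16386 CPM in CIA and 20931 CPM in Cont sebocytes (CPM, UMIs of a gene scaled to a fixed total of all UMIs in the summed sebocytes of a library). Of that, the 7 rule genes gave 10189, 9723 and 13076 CPM, so the rule itself fixed much of it, and the check rests on the markers outside the rule. Of these, Soat1, which esterifies cholesterol, stood at 2186, 1881 and 2055 CPM in CIA+VFX, CIA and Cont sebocytes, against 68.3, 55.6 and 40.2 CPM in the other kept barcodes, and Acsbg1, which activates long-chain fatty acids, at 271, 252 and 806 CPM in CIA+VFX, CIA and Cont sebocytes, against 20.04, 15.2 and 17.9 CPM in the other kept barcodes. Among the rule's own genes, Scd1, a fatty acid desaturase, stood at 4556, 3922 and 6079 CPM in CIA+VFX, CIA and Cont sebocytes, and Mgst1, a membrane glutathione transferase, at 3060.1, 3504 and 4322 CPM. Cidea, which helps lipid droplets fuse, had 828, 884 and 1294 CPM, and Awat2, a wax synthase, 55.6, 55.8 and 43.8 CPM. Single sebocytes varied widely, since Scd1 ranged in CIA+VFX cells up to 177 UMIs per 10000 around a median of 46.9, in CIA cells up to 189 around 36.4, and in Cont cells up to 215 around 53.7.

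RNA of other cell types was low but not absent, in part by construction, since the rule allowed no Ptprc, which is in the immune list, and at most 1 UMI of Col1a2. The immune list of 15 genes summed to 92.9, 122 and 166 CPM in CIA+VFX, CIA and Cont sebocytes, against 4273, 8018 and 6820 CPM over all kept barcodes. The fibroblast list of 10 genes summed to 76.9, 51.2 and 84.1 CPM, against 4363, 5749 and 6491 CPM over all kept barcodes. Upper follicle markers, from the duct region that joins the gland to the follicle, were not low: they summed to 4046, 4110 and 1508 CPM, and suprabasal epidermal markers to 1273, 1526 and 462 CPM. Both lists were thus higher in CIA+VFX and CIA than in Cont sebocytes, and their part in the differences described below was not tested. Krt79, which is also in the sebocyte marker list, gave 29.08%, 32.55% and 61.66% of the upper follicle sum in CIA+VFX, CIA and Cont. From summed CPM alone, a lower share of an expressing subset and less RNA per cell cannot be told apart. Per cell, upper follicle markers had a median share of 0.181%, 0.188% and 0.137% of UMIs in CIA+VFX, CIA and Cont sebocytes. Cells with over 1% of UMIs from these markers numbered 6, 6 and 0. The top cell gave 12.9%, 15.2% and 5.76% of the upper follicle sum.

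Sebocytes were deep barcodes, in part by construction, since the rule set lower limits on raw UMIs. Their median was 23984.5 UMIs in CIA+VFX, 26583 in CIA and 20628.5 in Cont, against 5754, 5301 and 7167 UMIs over all kept barcodes. The 3 libraries held 155210692, 130557879 and 143164803 UMIs, and their sebocytes 7682846, 4159599 and 1439285 UMIs, so that intervals were widest for Cont. No sebocyte barcode was shared between libraries. Doublets were called for 29 of the 274 CIA+VFX sebocytes, 1 of 139 CIA and 1 of 58 Cont sebocytes. These barcodes were left in.

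Sebocytes made up a larger share of the barcodes in CIA+VFX than in CIA, and in CIA than in Cont. They were 274 of 16635 kept barcodes in CIA+VFX, or 1.65% (exact 95% binomial interval 1.46% to 1.85%). They were 139 of 16573 in CIA, or 0.839% (0.706% to 0.990%), and 58 of 12638 in Cont, or 0.459% (0.349% to 0.593%). The share in CIA was 1.83 times that in Cont (95% interval 1.35 to 2.48), that in CIA+VFX was 1.96 times that in CIA (1.60 to 2.41) and 3.59 times that in Cont (2.71 to 4.76). These intervals, like all below, cover counting error only.

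**Figure D1:**
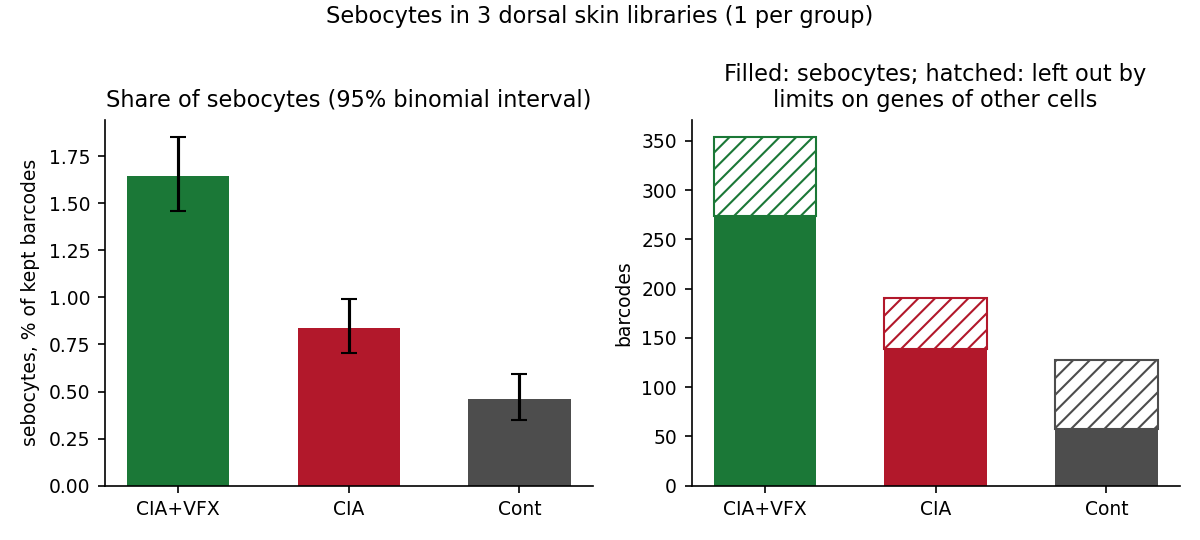
Left, sebocytes as a percentage of kept barcodes in each library (bars) with exact 95% binomial intervals (lines), 1 library per group: 1.65% in CIA+VFX, 0.839% in CIA and 0.459% in Cont. Right, number of barcodes that met both lower limits of the rule, split into sebocytes (filled) and barcodes left out by the limits on genes of other cells (hatched), which were 80 in CIA+VFX, 52 in CIA and 70 in Cont.

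The size of the difference between CIA and Cont depended on the limits on genes of other cells, as the plot of sebocyte shares shows; dropping them was an alternative chosen after the data were seen. Of the barcodes that met both lower limits, these limits removed 80 of 354 in CIA+VFX (22.6%), 52 of 191 in CIA (27.2%) and 70 of 128 in Cont (54.7%), and the Col1a2 limit touched 57, 45 and 63 of them. Barcodes over the Col1a2 limit carried little sebocyte RNA. Their median over the 5 genes of the second criterion was 3 UMIs in CIA+VFX, 4 in CIA and 3 in Cont, against 37.5, 30 and 48.5 UMIs in sebocytes, and their Col3a1, a fibroblast collagen, stood at 2405, 1178 and 2831 CPM, against 9.24, 5.77 and 16.0 CPM in sebocytes. With those barcodes counted as sebocytes the share in CIA was 1.22 times that in Cont (0.967 to 1.54), and with all 5 limits dropped it was 1.14 times (0.911 to 1.42). The order of CIA+VFX over CIA remained, at 1.79 times (1.49 to 2.14) and 1.85 times (1.55 to 2.20).

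The denominator mattered for venlafaxine. Set against keratinocytes and sebocytes alone, sebocytes were 9.03% in CIA+VFX, 7.18% in CIA and 3.35% in Cont, so that the CIA+VFX share was 1.26 times the CIA share (1.04 to 1.53). Here other keratinocytes were kept barcodes that were not sebocytes, with at least 10 UMIs of Krt5 plus Krt14, fewer than 30 of Mgst1 plus Scd1, no Ptprc and at most 1 of Col1a2: 2760 in CIA+VFX, 1798 in CIA and 1673 in Cont. The limit of 30 UMIs cut through a continuous range. Sebocytes with 30 to 39 UMIs of Mgst1 plus Scd1 numbered 41, 14 and 7 in CIA+VFX, CIA and Cont, and barcodes just outside, with 20 to 29 UMIs, numbered 69, 19 and 11.

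By level, the sebocyte transcriptome was led by lipid carriers. Fabp5, a fatty acid-binding protein, had 19104 CPM in CIA+VFX, 22225 CPM in CIA and 13763 CPM in Cont sebocytes, and Apoe, the lipoprotein that carries cholesterol and other lipids, 10301, 11412 and 14097 CPM. UMI counts from 3′ ends do not grow with transcript length, so these levels can be set beside each other. Next among named lipid genes were Scd1, Elovl6, which lengthens palmitate, at 2372, 2001 and 5333 CPM, and Soat1. Genes with the highest ratio of sebocytes to the other kept barcodes included the cytochrome P450 genes Cyp2g1 and Cyp17a1, the steroid dehydrogenase Hsd3b6, the elongase Elovl3, the fatty acid hydroxylase Fa2h and the fatty alcohol-forming reductase Far2.

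Sebocytes differed among themselves in their lipid, duct and cell cycle genes. They were divided by k-means on 15 principal components into 4 groups, numbered by falling Krt5 plus Krt14, the keratins of basal keratinocytes. Group 1 held 60 CIA+VFX, 41 CIA and 9 Cont cells, group 2 held 86, 45 and 18, group 3 held 47, 7 and 0, and group 4 held 81, 46 and 31. Since genes that lead these groups differ between the libraries (Carns1 in group 4, Cst6 in group 1), the sizes of the groups are not compared.

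Group 1 was led by Pinlyp, Klk7, Crabp2, Krt6a and Alox12e, with Defb6, Krtdap and Cst6 also among its 10 leading genes, and no keratin of basal keratinocytes was among them. Most Pinlyp UMIs came from a single CIA+VFX cell, as given below. Group 1 had the lowest sebocyte marker sum, 4950 CPM in CIA+VFX, 5513 CPM in CIA and 6489 CPM in Cont, and the highest G2/M phase sum, 4923, 4470 and 2230 CPM. Group 2 was intermediate in sebocyte markers, at 13938, 15376 and 15935 CPM, and group 4 higher, at 24344, 24927 and 28066 CPM. The leading genes of group 2 were Gpnmb, S100a3, Krt35, Krtap8-1 and Krtap7-1. Most CIA+VFX UMIs of Gpnmb, and most of S100a3, came from a single cell, as given below. Group 3 had the most, 42425 CPM in CIA+VFX and 37115 CPM in CIA, and the fewest UMIs per cell, a median of 3586 in CIA+VFX and 23797 in CIA. Its 54 cells were led by Pctp, Elovl4, Cyp4f39, Awat1 and Ly6g6c, and as 47 of them came from CIA+VFX the group may be that library rather than a stage. Mki67 ran the opposite way to the marker sum. Mki67, a marker of dividing cells, had 259, 219 and 41.8 CPM in group 1, 94.2, 70.3 and 32.4 CPM in group 2, and 41.6, 27.5 and 3.94 CPM in group 4. In group 3 it had 6.73 CPM in CIA+VFX and 5.88 CPM in CIA.

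**Figure D2:**
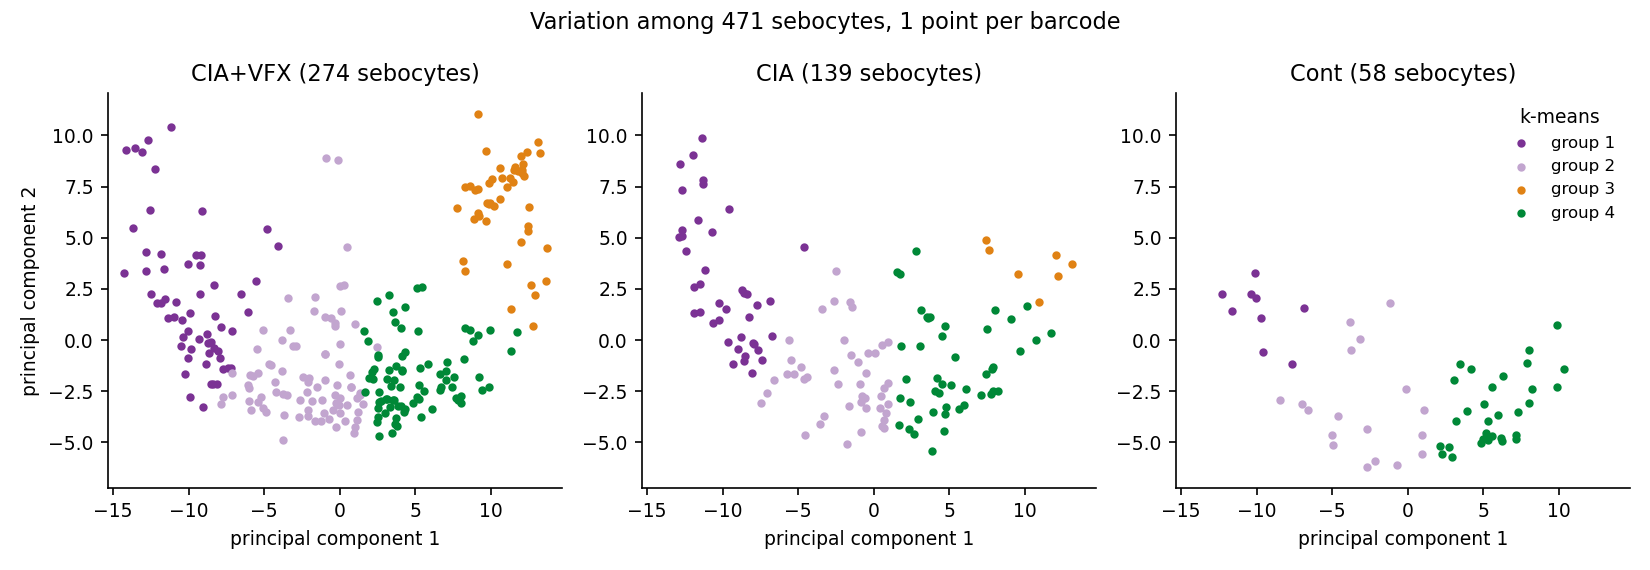
The 471 sebocytes on the first 2 principal components (no unit) of log counts, 1 point per barcode, 1 panel per library, coloured by k-means group. The 110 cells of group 1 lie at the left of the first component and the 158 cells of group 4 right of its middle, and the orange cells of group 3, above group 4 on the second component, are 47 in CIA+VFX, 7 in CIA and 0 in Cont.

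Gene levels were compared between libraries by the log2 ratio of CPM with an exact 95% interval. A gene with at least 50 UMIs over both libraries counted as measured, and one at least 1.5-fold apart as higher or lower. For CIA against Cont 8063 genes were measured, of which 1065 (13.2%) were higher and 1578 (19.6%) lower. Between CIA+VFX and CIA 9889 were measured, 934 (9.44%) higher and 275 (2.78%) lower, and for CIA+VFX against Cont 9422 were measured, 1302 (13.8%) higher and 1186 (12.6%) lower. Comparisons with Cont share the Cont library, and those with CIA the CIA library.

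The balance of higher and lower genes rested on the scaling. With TMM factors the split was 1600 higher and 1010 lower for CIA against Cont, and 1598 higher and 829 lower for CIA+VFX against Cont. With median-of-ratios scaling it was 1341 and 1206 for CIA against Cont, and 749 and 369 for CIA+VFX against CIA. The median log2 ratio of all genes was -0.09 for CIA against Cont by total UMIs and 0.08 by TMM, and for CIA+VFX against Cont -0.02 and 0.09. List medians are therefore read beside the median of all genes. Because the Cont sebocytes held fewest UMIs, a gene needed 34.7 CPM to be measured from Cont alone, but 12.02 CPM from CIA alone and 6.51 CPM from CIA+VFX alone, so that counts over a list lean towards genes higher in the deeper library.

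**Figure D3:**
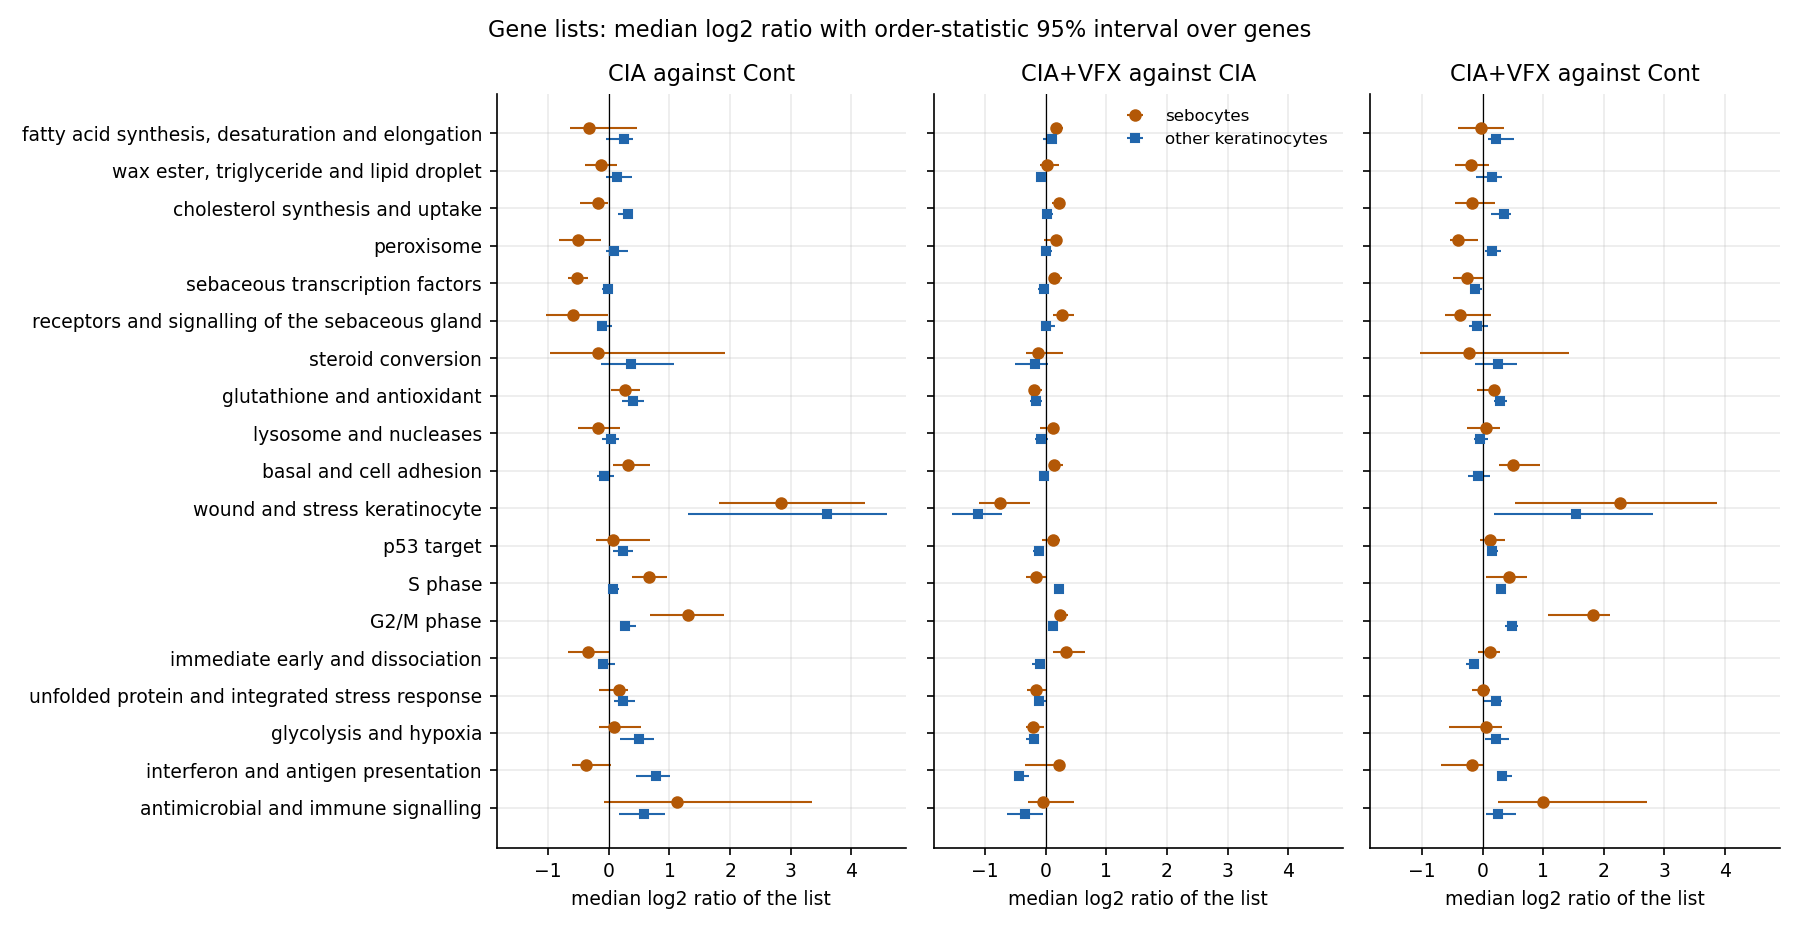
Median log2 ratio (horizontal axis) of 19 gene lists (rows) in sebocytes (circles) and in other keratinocytes (squares), with order-statistic 95% intervals over genes (lines), for the 3 comparisons, 1 library per group. The wound and stress list stood at 2.84 in sebocytes for CIA against Cont and at -0.75 for CIA+VFX against CIA, and the G2/M list at 1.30 and 0.23.

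Genes of fatty acid synthesis and elongation moved in both directions in CIA against Cont sebocytes. Of 45 listed genes 35 were measured, 11 of them higher and 15 lower, beside 13.2% and 19.6% over all genes. Their median log2 ratio was -0.32. The list summed to 39139.5 CPM in CIA+VFX, 39609 CPM in CIA and 39339.7 CPM in Cont, with Fabp5 giving 48.8%, 56.1% and 35.0% of it. The median turned to 0.40 without the Col1a2 limit. The elongase Elovl6 fell to 2001 CPM in CIA, against 5333 CPM in Cont (log2 ratio -1.41, -1.46 to -1.37), and Acsbg1 fell to 252 CPM, against 806 CPM (-1.68, -1.80 to -1.55). Both were also lower in CIA+VFX, at 2372 CPM (-1.17 against Cont) and 271 CPM (-1.57). Of the desaturases, Scd2 rose to 76.0 CPM in CIA, against 16.0 CPM in Cont (2.25, 1.64 to 2.93), and Scd3 rose to 242 CPM, against 124 CPM (0.96, 0.73 to 1.20). In Cont 1 cell gave 73.9% of the 23 UMIs of Scd2.

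Elongases of very long chains were distributed differently. Elovl4, which makes very long fatty acids of the skin barrier and meibomian lipids, rose to 983 CPM in CIA+VFX, against 382 CPM in CIA (1.36) and 116 CPM in Cont (3.08). Elovl5, which lengthens polyunsaturated fatty acids, stood at 454 CPM in CIA+VFX, 183 CPM in CIA and 404 CPM in Cont, so that it was lower in CIA than in Cont (-1.14, -1.30 to -0.98) and higher in CIA+VFX than in CIA (1.31, 1.20 to 1.43). Elovl3, a rule gene, had 936, 813 and 438 CPM. Without k-means group 3 the log2 ratio of Elovl4 in CIA+VFX was 0.18 against CIA and 0.98 against Cont. When barcodes were thinned to 5000 UMIs before the rule, the log2 ratio of Elovl5 in CIA against Cont was -0.28. The fatty acid synthase Fasn, chosen after its values were seen, had 346, 301 and 380 CPM, which is less than 1.5-fold apart in each comparison.

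**Figure D4:**
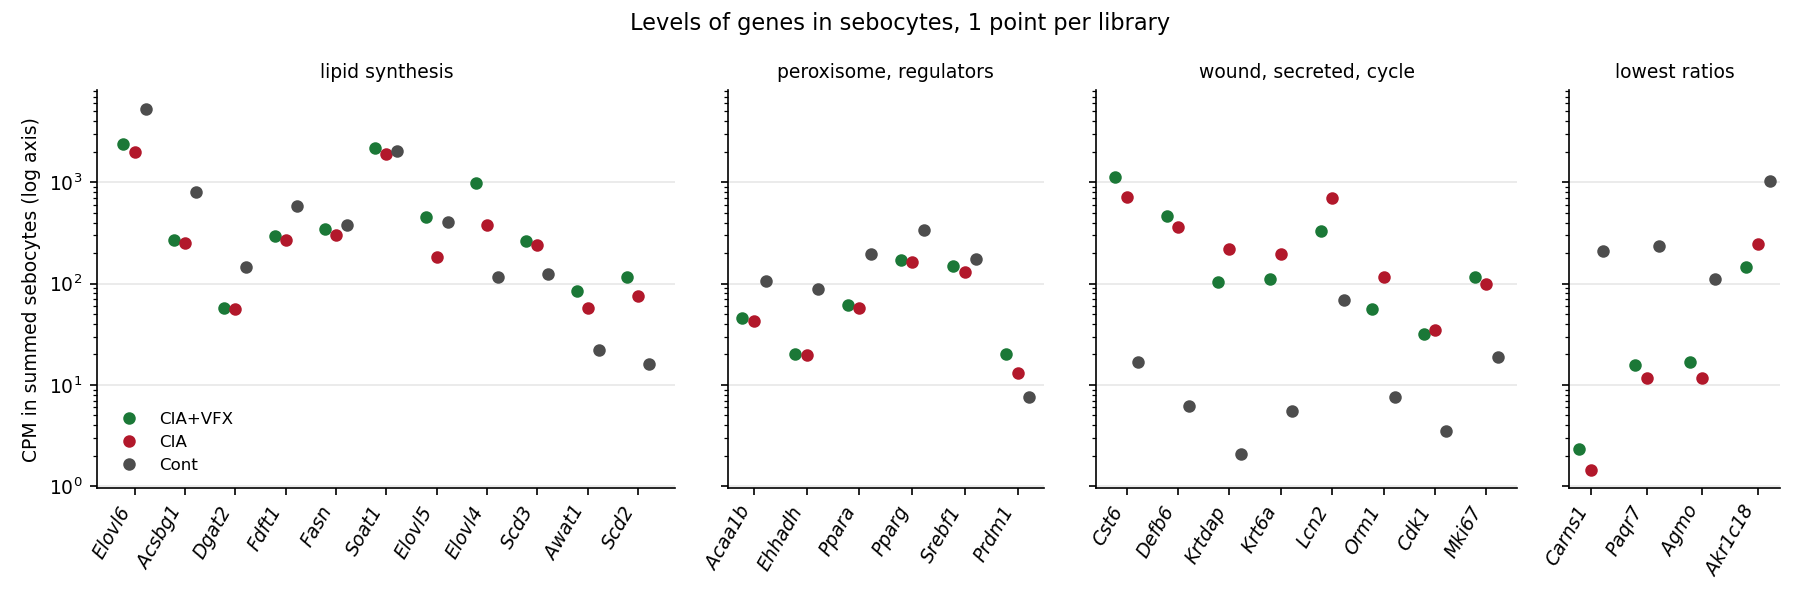
CPM in summed sebocytes on a log axis for named genes in 4 panels, 1 point per library (CIA+VFX, CIA, Cont from left to right), with no replicates and so no error bars. Elovl6 and Acsbg1 are highest in Cont, at 5333 and 806 CPM, Elovl4 is highest in CIA+VFX at 983 CPM, and Cst6 reads 1114, 711 and 16.7 CPM and Carns1 2.34, 1.44 and 211 CPM in CIA+VFX, CIA and Cont.

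Genes of wax ester, triglyceride and lipid droplet handling went both ways, at rates near those of all genes, which were 13.2% higher and 19.6% lower for CIA against Cont. Of 47 listed genes 29 were measured for CIA against Cont, 5 higher and 6 lower (median -0.13, and 0.04 with TMM factors), and the list summed to 20962 CPM in CIA+VFX, 21426 CPM in CIA and 25952 CPM in Cont. Dgat2, which closes triglyceride synthesis, fell to 56.3 CPM in CIA, against 147 CPM in Cont (-1.38, -1.66 to -1.11), and Lpin1, a phosphatidate phosphatase of the same route, fell to 130 CPM, against 291 CPM (-1.16, -1.35 to -0.97). Hilpda, an inhibitor of lipid droplet breakdown, rose to 235 CPM in CIA, against 82.0 CPM in Cont (1.52, 1.24 to 1.80), and the droplet protein Cidec rose to 29.8 CPM, against 9.03 CPM (1.72, 0.90 to 2.67). The wax synthase Awat1 had 85.0 CPM in CIA+VFX, 57.2 CPM in CIA and 22.2 CPM in Cont, but its ratio for CIA+VFX against Cont was -0.29 without k-means group 3. Plin2, which coats lipid droplets and was chosen after its values were seen, had 1467, 1721 and 2212 CPM, and passed 1.5-fold in CIA+VFX against Cont only (-0.59, and -0.49 with TMM factors).

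A minority of cholesterol genes fell in CIA against Cont. Of 34 listed genes 29 were measured, 1 higher and 8 lower, beside 19.6% lower over all genes, with a median of -0.17 (-0.48 to -0.02, and -0.006 with TMM factors). The interval of the median takes in the -0.09 of all genes. The same list gave 6 of 32 higher and 0 lower in other keratinocytes, where the median was 0.32. Fdft1, the squalene synthase, fell to 272 CPM in CIA, against 587 CPM in Cont (-1.11, -1.24 to -0.98), and Npc1, which exports cholesterol from lysosomes, fell to 55.5 CPM, against 172 CPM (-1.63, -1.89 to -1.36). Ebp, a sterol isomerase, was the gene that rose, to 157 CPM in CIA, against 101 CPM in Cont (0.63, 0.37 to 0.90), and it was not called when means over cells were used (0.50). The list summed to 10536 CPM in CIA+VFX, 9622 CPM in CIA and 12359.6 CPM in Cont. The median turned to 0.39 without the Col1a2 limit, which lets in the collagen-rich barcodes described above.

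Peroxisomes shorten very long fatty acids and make ether lipids, and many of their genes fell in CIA against Cont sebocytes. Of 43 listed genes 36 were measured, 4 higher and 15 lower, beside 13.2% and 19.6% over all genes. Their median was -0.51 (-0.82 to -0.14). In other keratinocytes 6 of 40 were higher and 0 lower, and the median was 0.09, beside 0.02 there over the genes measured in sebocytes. Ehhadh, the bifunctional enzyme of peroxisomal beta-oxidation, fell to 19.7 CPM in CIA, against 88.9 CPM in Cont (-2.17, -2.59 to -1.76), and had 20.04 CPM in CIA+VFX. Acaa1b, a peroxisomal thiolase, fell to 42.6 CPM in CIA, against 106 CPM in Cont (-1.31, -1.63 to -0.99), and had 45.8 CPM in CIA+VFX. Crot, which hands peroxisomal acyl chains to carnitine, rose to 29.6 CPM in CIA, against 15.3 CPM in Cont (0.95, 0.29 to 1.68, and 1.57 without called doublets). The list summed to 6854 CPM in CIA+VFX, 7187 CPM in CIA and 9611 CPM in Cont, with the rule gene Mgst1 giving 44.6%, 48.8% and 45.0% of it. Its median was 0.26 without the Col1a2 limit and -0.34 with TMM factors.

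More regulators of the gland were lower than higher in CIA against Cont. Of 46 listed transcription factors 39 were measured, 5 higher and 15 lower, beside 13.2% and 19.6% over all genes. Their median was -0.53 (-0.68 to -0.35), against -0.02 in other keratinocytes, where 1 of 44 was higher and 5 lower. The list summed to 4763 CPM in CIA+VFX, 4643 CPM in CIA and 6218 CPM in Cont. Pparg fell to 163 CPM in CIA, against 339 CPM in Cont (-1.05, -1.23 to -0.88), and had 170 CPM in CIA+VFX. Ppara, the receptor for fatty acids that drives their oxidation, fell to 57.9 CPM in CIA, against 197 CPM in Cont (-1.76, -2.02 to -1.51), and had 61.8 CPM in CIA+VFX. Both passed 1.5-fold against Cont, in both libraries, under each alternative run on single genes.

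Other regulators were mixed. Srebf1, which encodes SREBP1, had 149 CPM in CIA+VFX, 131 CPM in CIA and 176 CPM in Cont, under 1.5-fold apart in each comparison (-0.43 for CIA against Cont). Klf5 and Cebpd rose in CIA, to 264 CPM, against 123 CPM in Cont (1.10, 0.87 to 1.34), and to 37.5 CPM, against 13.2 CPM (1.51, 0.81 to 2.28). Prdm1, which encodes BLIMP1, and Gata6, a factor of the sebaceous duct, were low: Prdm1 had 20.04, 13.0 and 7.64 CPM and Gata6 12.5, 19.95 and 27.1 CPM in CIA+VFX, CIA and Cont. Gata6 was thus lowest in CIA+VFX and highest in Cont, and Prdm1 the reverse. Myc had 76.8, 84.9 and 136 CPM and was lower in CIA than in Cont (-0.68, -0.94 to -0.42), but not past 1.5-fold with TMM factors (-0.52). Klf5 was at 0.41 for CIA against Cont when barcodes were thinned before the rule.

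Receptors and signalling genes of the gland showed the same lean. Of 51 listed genes 29 were measured for CIA against Cont, 3 higher and 15 lower, beside 13.2% and 19.6% over all genes. Their median was -0.59 (-1.03 to -0.02), and the list summed to 2439.9 CPM in CIA+VFX, 2044 CPM in CIA and 3650.4 CPM in Cont. Mc5r, also a rule gene, had 42.6, 21.4 and 88.9 CPM. Axin2, a readout of Wnt signalling, fell to 5.29 CPM in CIA, against 29.9 CPM in Cont (-2.50, -3.31 to -1.73), and had 3.90 CPM in CIA+VFX.

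Several steroid-handling genes fell in CIA against Cont. Akr1c18, which inactivates progesterone, fell to 247 CPM in CIA, against 1017 CPM in Cont (-2.04, -2.16 to -1.93), and stood at 145 CPM in CIA+VFX, lower again than CIA (-0.77, -0.89 to -0.64). Cyp17a1, the hydroxylase and lyase on the way to androgens, fell to 266 CPM in CIA, against 688 CPM in Cont (-1.37, -1.50 to -1.25), and had 230 CPM in CIA+VFX. Hsd3b6 fell to 64.7 CPM in CIA, against 126 CPM in Cont (-0.96, -1.24 to -0.68). The list of 33 genes, 15 of them measured, gave 5 higher and 7 lower (median -0.17), beside 13.2% and 19.6% over all genes. Crabp2, the retinoic acid-binding protein, had 42.7 CPM in CIA+VFX and 32.7 CPM in CIA, against 0 UMIs in Cont. With 3 UMIs as the Cont floor, Crabp2 was at least 15.7-fold higher in CIA.

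The genes with the lowest ratios for CIA against Cont were low in CIA+VFX too. Carns1, which makes carnosine, had 2.34 CPM in CIA+VFX and 1.44 CPM in CIA, against 211 CPM in Cont (-7.19 for CIA, -8.65 to -6.05), from 18 and 6 UMIs, against 303. Paqr7, a membrane progesterone receptor, had 15.9 and 11.8 CPM, against 235 CPM in Cont (-4.32, -4.78 to -3.88). Agmo, which cleaves ether lipids, had 16.7 and 11.8 CPM, against 112 CPM in Cont (-3.25, -3.74 to -2.78). The intervals of all 3 ratios lie far from 0, in counting error alone.

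The same held for other members of that set. Tmem159, a lipid droplet assembly factor, had 82.4 CPM in CIA+VFX and 66.4 CPM in CIA, against 396 CPM in Cont (-2.58, -2.79 to -2.37), and Cyp2g1 69.0 and 48.8 CPM, against 458 CPM (-3.23, -3.46 to -3.00). Zbtb16, a zinc-finger transcription factor, had 39.2 and 18.3 CPM, against 105 CPM, and Serpina3b, a serine protease inhibitor, 58.8 and 30.8 CPM, against 176 CPM. In other keratinocytes the log2 ratios of Paqr7, Agmo and Tmem159 were 0.03, -0.07 and -0.22.

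Wound and stress genes were the most raised list in CIA against Cont. Of 35 listed genes 13 were measured, 12 higher and 1 lower, beside 13.2% higher and 19.6% lower over all genes. The median was 2.84 (1.81 to 4.22), and the list summed to 1717 CPM in CIA+VFX, 2745 CPM in CIA and 525 CPM in Cont. The count leans towards genes high in CIA, since fewer CPM sufficed to be measured from CIA alone than from Cont alone. The median was 1.96 over 18 genes with a minimum of 10 UMIs. It was 1.92 over 8 genes with a limit of 60 UMIs of Mgst1 plus Scd1. Other keratinocytes moved too, with 26 of 30 higher and a median of 3.61. Krt6a, a keratin of injured epidermis, rose to 197 CPM in CIA, against 5.56 CPM in Cont (5.15, 4.16 to 6.36, and 3.34 with a limit of 60 UMIs of Mgst1 plus Scd1), and had 110 CPM in CIA+VFX. Klk9, a kallikrein protease, was the member that fell, to 11.8 CPM in CIA, against 30.6 CPM in Cont (-1.38, -1.99 to -0.76). The summed upper follicle and suprabasal markers, given above, moved in the same direction, but the lists share genes. Krt17 is also an upper follicle marker, and it gave 51.4%, 48.0% and 35.1% of the wound list sum in CIA+VFX, CIA and Cont.

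Secreted defence proteins rose beside them. Of 38 antimicrobial and immune signalling genes 18 were measured, 11 higher and 3 lower, beside 13.2% and 19.6% over all genes. Their median was 1.12 (-0.07 to 3.36). Lcn2, which sequesters bacterial iron carriers, rose to 704 CPM in CIA, against 68.8 CPM in Cont (3.36, 3.07 to 3.66), and 1 cell gave 60.6% of its 99 Cont UMIs. The acute-phase protein gene Orm1, which is not in the list, rose to 117 CPM in CIA, against 7.64 CPM (3.94, 3.09 to 4.95), and the chemokine gene Cxcl1 to 587 CPM, against 104 CPM (2.49, 2.26 to 2.74). Slpi, a protease inhibitor, rose to 62.0 CPM in CIA, against 4.17 CPM in Cont (3.90, 2.75 to 5.36). Over the alternatives that moved them by over 1.5-fold, the ratio of Orm1 ran between 2.36 and 3.33 and that of Cxcl1 between 1.79 and 3.76. The list summed to 2416 CPM in CIA+VFX, 2695 CPM in CIA and 1025 CPM in Cont.

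Some of these genes belong to the duct and upper follicle, and their ratios hung on the rule's limit. The beta-defensin Defb6 had 460 CPM in CIA+VFX and 362 CPM in CIA, against 6.25 CPM in Cont (5.86 for CIA, 4.93 to 6.99), and the protease inhibitor Cst6 1114 and 711 CPM, against 16.7 CPM (5.42, 4.84 to 6.06). With a limit of 20 UMIs of Mgst1 plus Scd1 in place of 30, their log2 ratios for CIA against Cont were 0.71 for Defb6 and 2.97 for Cst6. A single cell held 56.0% of the Cst6 UMIs in CIA. Krtdap, a protein of differentiating keratinocytes, had 104 and 219 CPM, against 2.08 CPM from 3 UMIs in Cont (6.72, 5.17 to 9.00). Both Defb6 and Cst6 are upper follicle markers, and the antimicrobial list median was -0.11 for CIA against Cont without the Col1a2 limit.

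Some basal keratinocyte and adhesion genes rose in CIA against Cont. Of 29 listed genes 25 were measured, 8 higher and 2 lower, beside 13.2% and 19.6% over all genes. Their median was 0.32 (0.06 to 0.67), and without k-means group 1 it was -0.05. The list summed to 6966 CPM in CIA+VFX, 7457 CPM in CIA and 5888 CPM in Cont. Krt5 rose to 490 CPM in CIA, against 163 CPM in Cont (1.59, 1.40 to 1.79), and had 509 CPM in CIA+VFX. Dsg3, a desmosomal cadherin of basal cells, rose to 45.2 CPM in CIA, against 2.78 CPM in Cont (4.02, 2.64 to 5.91, and 2.82 with a limit of 60 UMIs of Mgst1 plus Scd1), from 188 UMIs, against 4. Dst, which anchors keratin to hemidesmosomes, fell to 169 CPM, against 299 CPM (-0.82, -0.99 to -0.64).

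Cell cycle genes were higher in CIA and CIA+VFX than in Cont sebocytes. Of 52 G2/M phase genes 40 were measured for CIA against Cont, 29 higher and 1 lower, beside 13.2% and 19.6% over all genes. Their median was 1.30 (0.67 to 1.90), and the list summed to 2822 CPM in CIA+VFX, 2580.3 CPM in CIA and 1489 CPM in Cont. S phase genes gave 16 higher and 1 lower of 30 measured (median 0.66, 0.39 to 0.96), with sums of 961 CPM in CIA+VFX, 1081 CPM in CIA and 761 CPM in Cont, but the S phase median was 0.03 without k-means group 1 and 0.26 with a limit of 60 UMIs of Mgst1 plus Scd1. In other keratinocytes the G2/M median was 0.27, with 13 of 52 higher. Cdk1, the kinase that drives entry into mitosis, rose to 34.6 CPM in CIA, against 3.47 CPM in Cont (3.32, 2.06 to 4.96, and 2.56 with a limit of 60 UMIs of Mgst1 plus Scd1), and had 32.0 CPM in CIA+VFX, from 246, 144 and 5 UMIs in CIA+VFX, CIA and Cont.

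Cycling genes named after their values were seen behaved alike. Mki67 had 117 CPM in CIA+VFX and 99.5 CPM in CIA, against 18.8 CPM in Cont (2.41 for CIA, 1.84 to 3.03), and Ube2c, which brings ubiquitin to the anaphase-promoting complex, 72.5 and 77.2 CPM, against 8.34 CPM (3.21, 2.39 to 4.18). The G2/M median depended on low counts and on k-means group 1. It was 0.50 with a minimum of 200 UMIs, 0.38 without k-means group 1, and -0.02 over the 5 genes left when barcodes were thinned to 5000 UMIs before the rule. The share of sebocytes with at least 5 G2/M UMIs after thinning to 5000 was 74.8% in CIA+VFX, 80.9% in CIA and 59.3% in Cont (88.7%, 97.1% and 93.1% unthinned, 40, 3 and 4 cells left out). In barcodes with Ptprc, which mark immune cells, the thinned share was 71.6%, 66.0% and 57.6% at median depths of 5496, 5612 and 6362 UMIs, and in other keratinocytes 82.3%, 84.4% and 83.7%. The exact 95% intervals of sebocytes and barcodes with Ptprc overlapped in CIA+VFX and in Cont but not in CIA (73.3% to 87.1%, against 63.9% to 68.1%). With shares this high in every class, they are not read as shares of cycling cells.

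Promoters of 3 of these genes are shown because they carry the cell cycle homology region, the letters TTTGAA that are known from cell cycle genes repressed outside division. The windows are the 250 bases before the start, from RefSeq on GRCm38.p6, and capitals mark TTTGAA on either strand. They are Ube2c at chr2:164769679-164769928 (plus strand), Cdk1 at chr10:69352913-69353162 (minus strand) and Mki67 at chr7:135716380-135716629 (minus strand).
Ube2c: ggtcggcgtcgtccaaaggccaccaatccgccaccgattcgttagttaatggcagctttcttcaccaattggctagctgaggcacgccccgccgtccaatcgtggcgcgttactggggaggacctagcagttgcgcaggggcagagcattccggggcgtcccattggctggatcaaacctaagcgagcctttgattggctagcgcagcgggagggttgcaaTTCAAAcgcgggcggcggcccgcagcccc
Cdk1: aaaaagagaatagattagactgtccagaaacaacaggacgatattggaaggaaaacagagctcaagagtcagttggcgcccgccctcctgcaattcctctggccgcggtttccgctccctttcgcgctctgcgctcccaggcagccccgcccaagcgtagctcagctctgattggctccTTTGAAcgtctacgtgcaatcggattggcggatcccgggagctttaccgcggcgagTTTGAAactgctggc
Mki67: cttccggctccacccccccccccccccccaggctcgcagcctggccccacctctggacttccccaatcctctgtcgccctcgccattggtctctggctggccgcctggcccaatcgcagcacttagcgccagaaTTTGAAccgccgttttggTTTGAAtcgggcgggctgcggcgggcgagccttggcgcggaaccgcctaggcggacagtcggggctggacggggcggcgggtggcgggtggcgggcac
The first marked site lies 29 bases before the start in Ube2c, 71 in Cdk1 and 116 in Mki67, and the windows hold 1, 2 and 2 sites. TTTGAA occurred on either strand in 21 of 51 windows of G2/M genes (41.18%), and in 15.99% of all 32851 windows of that length. CCAAT, a motif of general promoter factors that does not overlap it, occurred in 74.51% of the G2/M windows and in 33.85% of all. For the lipid lists, the PPAR response element, a direct repeat with a spacer of 1 base, occurred in 0 of 37 peroxisome windows and in 0.34% of all. TCACNCCAC, the letters of a sterol regulatory element, occurred in 1 of 31 cholesterol windows and in 1.05% of all. In the fatty acid windows the PPAR element occurred in 1 of 44 (2.27%) and TCACNCCAC in 2 of 44 (4.55%). A match is a description of the letters, and its absence says nothing of the factor.

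Differences between CIA or CIA+VFX and Cont were also present within k-means groups. In group 4 Elovl6 had 4066 CPM in CIA+VFX and 3953 CPM in CIA, against 8495 CPM in Cont. Acsbg1 had 326 and 292 CPM there, against 775 CPM, and in group 2 it had 309 and 267 CPM, against 869 CPM. Ehhadh in group 4 had 28.2 and 25.3 CPM, against 113 CPM. In group 4 Carns1 had 3.97 CPM in CIA+VFX and 1.45 CPM in CIA, against 391 CPM in Cont, and Paqr7 31.3 and 18.1 CPM, against 397 CPM. The clustering used these genes, so the levels describe the groups and are no separate evidence.

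Duct-type and wound genes sat in group 1. Cst6 had 3657 CPM in CIA+VFX and 2125 CPM in CIA, against 4.64 CPM in Cont, in group 1, and at most 271 CPM in any other group and library. Krt6a had 375, 617 and 13.9 CPM in group 1, and at most 13.6 CPM elsewhere. Lcn2 was spread more evenly, at 347, 608 and 82.8 CPM in group 4 and 373, 890.2 and 135 CPM in group 1. Group 1 held 9 Cont cells, so its Cont levels rest on few cells.

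**Figure D5:**
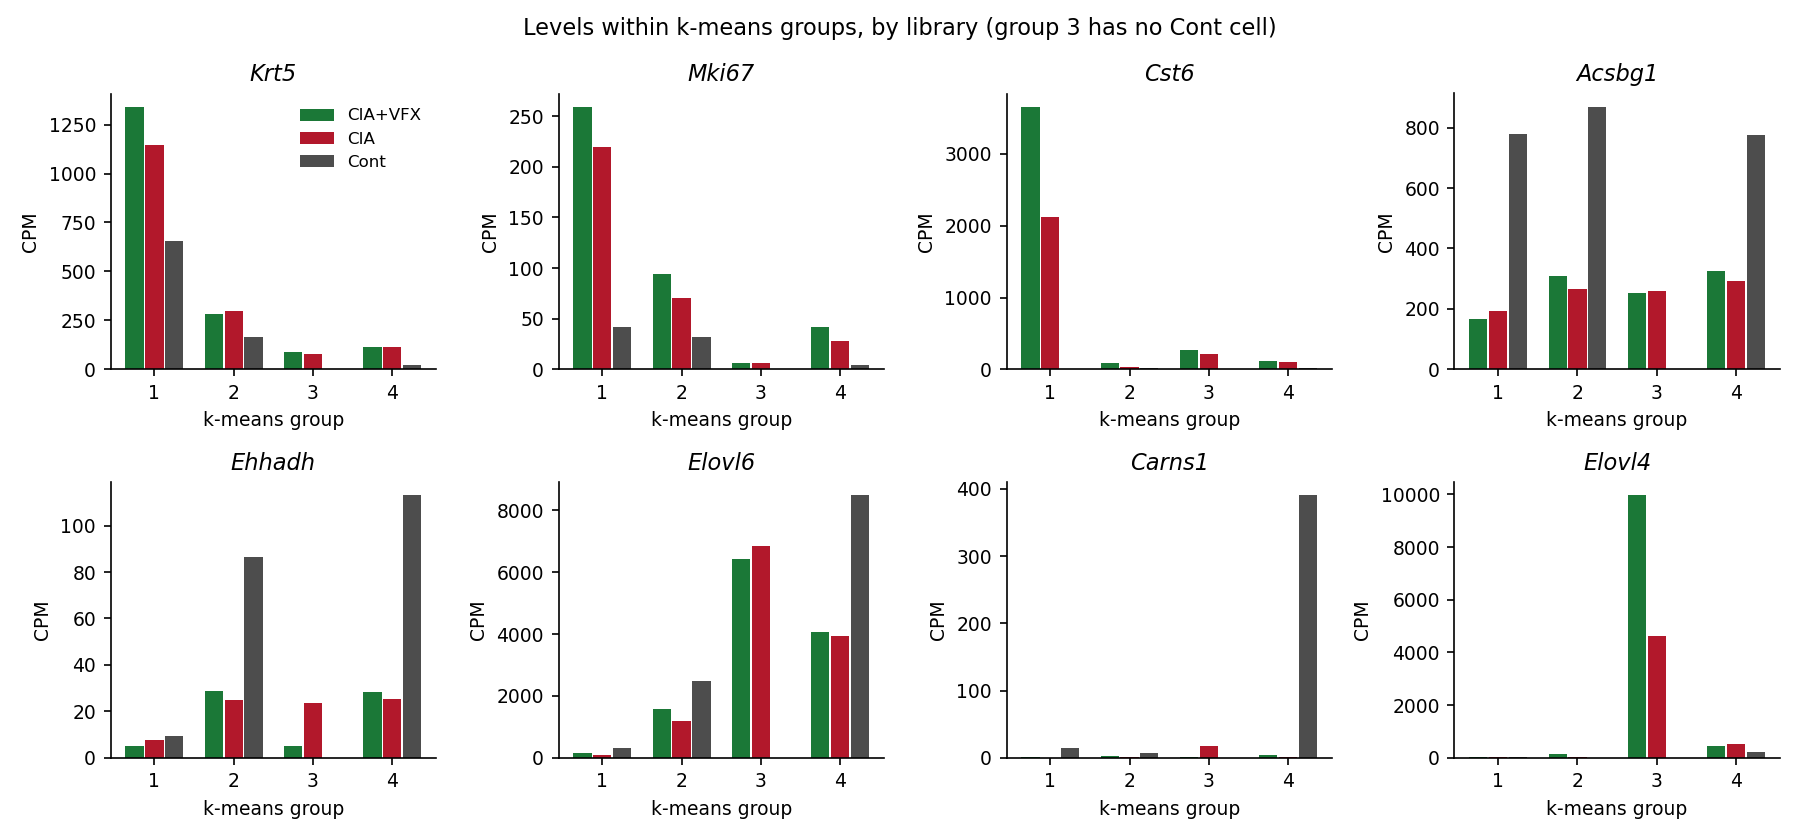
CPM (vertical axes, from 0) of 8 genes within each k-means group (horizontal axes), by library (CIA+VFX, CIA, Cont from left to right), without replicates. Group 3 has no Cont cell, Elovl6 in group 4 reads 4066, 3953 and 8495 CPM, and Cst6 in group 1 reads 3657, 2125 and 4.64 CPM.

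Wound and stress genes, and some single defence genes, were lower in CIA+VFX than in CIA sebocytes. The wound and stress list was the one with most lower genes: of 15 measured genes 8 were lower and 3 higher (median -0.75, -1.10 to -0.25), and in other keratinocytes 24 of 30 were lower (median -1.11). Over all genes measured in sebocytes 9.44% were higher and 2.78% lower. In sebocytes the list median was -0.30 with a limit of 60 UMIs of Mgst1 plus Scd1, -0.42 without the Col1a2 limit and -0.12 without the 5 limits. It was -0.04 over the 3 genes left when barcodes were thinned before the rule, and -0.91 over 6 genes with each cell thinned. The antimicrobial and immune signalling list was not lower as a whole, with 6 higher, 3 lower and 16 within 1.5-fold of 25 measured (median -0.05). Lcn2, a member of both lists, fell to 329.6 CPM in CIA+VFX, against 704 CPM in CIA (-1.10, -1.17 to -1.02), Orm1, in neither list, to 56.6 CPM, against 117 CPM (-1.05, -1.24 to -0.86), and Cxcl1 to 305 CPM, against 587 CPM (-0.95, -1.03 to -0.86). Aqp3, a water and glycerol channel in neither list, fell to 104 CPM, against 212 CPM (-1.02, -1.16 to -0.88, and -0.39 with a limit of 60 UMIs of Mgst1 plus Scd1), and Ivl, which builds the cornified envelope, to 46.9 CPM, against 90.4 CPM (-0.95, -1.16 to -0.74). The Cont levels were lower still, at 68.8 CPM for Lcn2, 7.64 CPM for Orm1, 104 CPM for Cxcl1, 57.0 CPM for Aqp3 and 25.7 CPM for Ivl.

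Calls for keratins in that comparison were less stable. Krt6a fell to 110 CPM in CIA+VFX, against 197 CPM in CIA (-0.84, -0.98 to -0.70), and Krt16 to 13.4 CPM, against 34.9 CPM (-1.38, -1.76 to -1.004). With a limit of 60 UMIs of Mgst1 plus Scd1 both turned, to 0.63 and 0.24. Krtdap fell to 104 CPM, against 219 CPM (-1.08, -1.22 to -0.94), and was -0.13 without k-means group 1. Abcc3, an organic anion exporter, fell to 28.0 CPM, against 70.7 CPM (-1.34, -1.60 to -1.08), with 58.4 CPM in Cont.

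Lipid lists held called genes at about or below the rate of all genes between CIA+VFX and CIA, which was 9.44% higher and 2.78% lower. Of 35 measured fatty acid genes 3 were higher and 1 lower, of 41 peroxisome genes 3 and 0, of 32 cholesterol genes 1 and 0, and of 31 wax and droplet genes 2 and 0, with medians of 0.18, 0.16, 0.22 and 0.03 beside 0.07 for all genes. Regulators were called more often. Receptors and signalling genes gave 9 higher and 0 lower of 34 (median 0.27, 0.12 to 0.47), and transcription factors 7 higher and 1 lower of 42 (median 0.14). Mc5r, a rule gene, was among the higher receptors (0.99, 0.65 to 1.35). With barcodes thinned before the rule the medians were -0.035 over 11 receptor and signalling genes and -0.035 over 21 transcription factors. The receptor and signalling median was 0.11 without the Col1a2 limit and 0.095 without the 5 limits. Immediate early genes, which respond to stimuli and to tissue dissociation, gave 13 higher and 1 lower of 38 (median 0.33, 0.13 to 0.65): Egr1 rose to 343 CPM in CIA+VFX, against 152 CPM in CIA (1.17, 1.05 to 1.30), with 319.6 CPM in Cont. The immediate early median was 0.18 with a limit of 60 UMIs of Mgst1 plus Scd1. It was 0.07 without the Col1a2 limit, 0.024 without the 5 limits and 0.035 over 25 genes with barcodes thinned before the rule. The G2/M list gave 11 higher and 0 lower of 51 (median 0.23), and the S phase list 0 higher and 3 lower of 38 (median -0.16).

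The highest ratios for CIA+VFX against CIA came in part from single barcodes. In CIA+VFX 1 cell held 93.2% of the 459 UMIs of Gpnmb, 1 cell 86.4% of the 986 UMIs of S100a3, 1 cell 97.6% of the 742 UMIs of Pinlyp and 1 cell 64.5% of the 688 UMIs of Nckap5. Hair shaft markers summed to 76.8 CPM in CIA+VFX, 3.13 CPM in CIA and 8.34 CPM in Cont sebocytes, and 1 cell held 62.2% of that CIA+VFX sum. S100a3 is known from the hair cuticle, and the part of hair shaft RNA in its ratio was not tested. Ly6g6c rose to 168 CPM in CIA+VFX, against 45.9 CPM in CIA (1.87, 1.65 to 2.10), and was 0.52 without k-means group 3. Ccl27a, a skin chemokine for T cells, had 76.3 CPM, against 23.1 CPM in CIA and 87.5 CPM in Cont, and its ratio to CIA was 0.39 without k-means group 1. Gclc, the rate-limiting enzyme of glutathione synthesis, had 130 CPM in CIA+VFX and 71.4 CPM in CIA, against 311 CPM in Cont, and its ratio of CIA+VFX to CIA was 0.40 when barcodes were thinned before the rule.

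Set against Cont, CIA+VFX sebocytes had more higher than lower genes in the wound, cycle and basal lists, and more lower than higher genes in the peroxisome and regulator lists. Rates over all genes in this comparison were 13.8% higher and 12.6% lower. The wound list gave 10 higher and 1 lower of 13 measured (median 2.26), the G2/M list 36 higher and 0 lower of 48 (median 1.81), and the basal list 13 higher and 1 lower of 28 (median 0.50). Peroxisome genes gave 5 higher and 11 lower of 39 (median -0.40), transcription factors 6 and 12 of 42 (median -0.27) and receptors 5 and 12 of 35 (median -0.37). Without the Col1a2 limit the peroxisome median turned to 0.46 and the wound median was 0.95. With barcodes thinned before the rule the G2/M median was 0.21 and the basal median 0.05, and without k-means group 1 the basal median was 0.10. Among genes named for this comparison by ratio, Socs2, which restrains growth hormone signalling, fell to 28.9 CPM in CIA+VFX, against 144 CPM in Cont (-2.31, -2.60 to -2.04), and had 38.0 CPM in CIA. Slc7a6, an amino acid transporter, fell to 24.9 CPM, against 122 CPM (-2.29, -2.59 to -1.99), and had 22.1 CPM in CIA.

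The transporters that venlafaxine blocks were nearly absent from sebocytes. Slc6a4, the serotonin transporter, had 10 UMIs in CIA+VFX, 1 in CIA and 1 in Cont. Slc6a2, the noradrenaline transporter, had 8 UMIs in CIA+VFX, 3 in CIA and 0 in Cont. At these counts neither was measured in any comparison.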

How the data were processed

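Single cells of mouse back skin were profiled with a droplet 3′ gene expression kit in 3 libraries, 1 per group. The authors deposited filtered matrices of UMI counts per gene and barcode. Per the file headers, Cell Ranger 8.0.1 wrote them. The submitters' processing notes also name FastQC 0.11.7 and the genome build GRCm39. The files list 33696 genes. No doublet removal is stated in the sources used here.

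UMIs of the sebocytes were summed per library and divided by their total to give CPM, and each pair of libraries was compared by the log2 ratio with an exact conditional binomial 95% interval. Shares have exact (Clopper-Pearson) intervals and ratios of shares log (Katz) intervals. A ratio against 0 UMIs was bounded with a floor of 3 counts per library. List medians have order-statistic intervals. The 32 lists (the rule genes, 19 functional lists and 12 marker lists) hold 818 symbols, of which 5 are not used here. The members and the lists were chosen with earlier results of these data known.

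Genes named are the rule genes, for each comparison the 8 highest and 8 lowest ratios among genes whose higher library had 100 or more UMIs, 50 or more CPM and 0.5 or more of the level over all its kept barcodes, up to 2 per direction from each list, the 20 highest levels, the 20 highest ratios to other kept barcodes, and a fixed set of regulators and venlafaxine targets. Results of some genes that this rule names are not reported here. Fasn, Plin2, Mki67 and Ube2c lie outside it or were chosen after their values were seen. The 4 k-means groups used 15 principal components of log counts per 10000 of the 2000 most variable genes (seed 1). Doublets were called from simulated doublets among 30 nearest neighbours at 0.4% per 1000 barcodes.

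Alternatives were the limit of 30 UMIs (20 or 60), 1000 genes with 8% mitochondrial UMIs, doublets left out, thinning to 5000 UMIs, TMM or median-of-ratios scaling, means over cells, subtraction of 5% free RNA, a minimum of 10 or 200 UMIs, a total without the rule genes and another denominator. On simulated data the intervals covered 96.0% of 200 changed genes for CIA against Cont, 98.0% for CIA+VFX against CIA and 98.0% for CIA+VFX against Cont, and 4.59%, 2.45% and 6.65% of unchanged genes passed 1.5-fold. Tools were Python 3.11.15, numpy 2.4.6, scipy 1.17.1, pandas 2.3.3, scikit-learn 1.9.0, matplotlib 3.10.9, R 4.3.3 and edgeR 4.0.16, which gave only the TMM factors.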

Additional observations from a re-analysis of the deposited data

Results flagged for a closer look

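Barcodes over the limit of 15% mitochondrial UMIs, which no comparison used, included some that met the rest of the sebocyte rule. They were 7 of 729 in CIA+VFX (0.960%) and 2 of 219 in CIA (0.913%), against 1 of 648 in Cont (0.154%).

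Some genes passed 1.5-fold in opposite directions in sebocytes and in other keratinocytes. The difference between the cell classes was not tested, since each comparison has 1 library per group. For CIA against Cont the log2 ratios in sebocytes and in other keratinocytes were -2.06 and 0.75 for Mc5r, -0.98 and 1.60 for Hsd17b2, which inactivates sex steroids, -1.38 and 0.76 for Klk9, and -0.71 and 2.74 for Sdr16c6. Levels in other keratinocytes were low for the first 3, at most 3.98 CPM, and Mc5r is a rule gene.

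For CIA+VFX against CIA they were 0.65 and -0.79 for Cst6, 1.87 and -1.43 for Ly6g6c, 0.69 and -0.68 for Stfa3, and 0.93 and -1.99 for S100a8. Without the barcode with most UMIs in each library Stfa3 was at -1.09 in sebocytes.

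For CIA+VFX against Cont they were -0.64 and 0.88 for Cidea, -1.06 and 1.40 for Mc5r, 3.62 and -0.94 for Gpnmb, 0.87 and -0.99 for Ivl, 1.39 and -0.65 for Cebpd, and -0.99 and 1.10 for Pparg. They were -1.75 and 1.05 for Hsd17b2, -1.68 and 0.60 for Cd274, the gene of PD-L1, and -0.59 and 1.22 for Plin2. Most Gpnmb UMIs of the CIA+VFX sebocytes came from a single cell, as given above. Pparg stood at 8.89 CPM in CIA+VFX and 4.16 CPM in Cont keratinocytes, against 170 and 339 CPM in sebocytes. Cidea and Mc5r are rule genes, so their ratios are a description only. In CIA+VFX and Cont keratinocytes Cidea had 9.24 and 5.01 CPM, and Mc5r 1.83 and 0.69 CPM. Over all genes measured in both classes, 74 of 8009 passed in opposite directions for CIA against Cont and 346 in the same direction, 24 of 9805 and 91 for CIA+VFX against CIA, and 79 of 9349 and 250 for CIA+VFX against Cont.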

How the results depend on the processing

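No paired analysis was possible because each group has 1 library, and for the same reason no replicate could be left out. The cause of the changes below was not tested. Of 30 alternative values of the share ratios 24 moved by less than counting error, of 108 gene counts 72 stayed within 1.5 times, and of 5649 gene ratios, leaving aside the alternatives on the limits given below, 12 turned. The share ratios were 1.26 for CIA+VFX against CIA and 2.69 for CIA+VFX against Cont over keratinocytes and sebocytes alone. Alternatives chosen after seeing the data gave 1.22 (CIA over Cont) and 2.19 (CIA+VFX over Cont) without the Col1a2 limit, and 1.14 and 2.10 without the 5 limits on genes of other cells.

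Genes higher and lower for CIA against Cont were 338 and 351 with barcodes thinned before the rule, 1600 and 1010 with TMM factors, 514 and 636 with each cell thinned, 1892 and 2708 with a minimum of 10 UMIs, 485 and 694 with 200 UMIs, 2000 and 2791 without the Col1a2 limit, and 1977 and 2827 without the 5 limits. Between CIA+VFX and CIA they were 273 and 168 with barcodes thinned, 2191 and 828 with 10 UMIs, and 296 and 81 with 200 UMIs, with 408 higher when each cell was thinned. Lower genes were 469 by mean over cells, 479 without the Col1a2 limit and 547 without the 5 limits. For CIA+VFX against Cont they were 427 and 433, 588 and 657, 2308 and 2103, 542 and 568, 2379 and 2761, and 2382 and 2926 under barcodes thinned, each cell thinned, 10 UMIs, 200 UMIs, no Col1a2 limit and none of the 5 limits.

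The G2/M median for CIA against Cont was -0.024 with barcodes thinned. The antimicrobial median was -0.11 (CIA over Cont) and -0.46 (CIA+VFX over Cont) without the Col1a2 limit, and -0.24 and -0.54 without the 5 limits. Without the Col1a2 limit 18 of 105 named genes past 1.5-fold turned for CIA against Cont, 2 of 52 for CIA+VFX against CIA and 31 of 109 for CIA+VFX against Cont.

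Ratios that turned for CIA+VFX against Cont were S100a3 at -3.93 with a limit of 20 UMIs, Nckap5 at -1.04 with 60 UMIs, -0.30 by mean over cells and -0.028 with each cell thinned, and Awat1 at -0.29 without k-means group 3. Against CIA the CIA+VFX ratios that turned were Krt6a at 0.63 and Krt16 at 0.24 with 60 UMIs, Hspa1b at -0.044 with barcodes thinned, Stfa3 at -0.17 by mean over cells and -1.09 without the barcode with most UMIs, Lypd3 at 0.005 without k-means group 1, and Pnpla5 at -0.17 without k-means group 3.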

Other observations

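Interferon and antigen presentation genes gave 2 higher and 7 lower of 22 measured for CIA against Cont (median -0.39, -0.61 to 0.03), beside 13.2% and 19.6% over all genes. In other keratinocytes 21 of 31 were higher and 0 lower (median 0.78). The sebocyte median was unstable. It was -0.05 over 6 genes with a minimum of 200 UMIs and 0.14 without the Col1a2 limit. With barcodes thinned before the rule it was -0.05 over 4 genes, and with each cell thinned 0.015 over 5 genes. Cd274 stood at 11.7 CPM in CIA+VFX, 8.65 CPM in CIA and 37.5 CPM in Cont sebocytes. For CIA+VFX against CIA 2 of 23 were higher and 1 lower, with Isg15, an interferon-induced ubiquitin-like protein, at 15.9 CPM in CIA+VFX and 3.85 CPM in CIA (2.05).

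Rates over all genes were 13.2% higher and 19.6% lower for CIA against Cont, and 9.44% and 2.78% for CIA+VFX against CIA. Glutathione and antioxidant genes gave 6 higher and 4 lower of 38 for CIA against Cont (median 0.26, 0.04 to 0.51), and 2 higher and 5 lower of 42 for CIA+VFX against CIA (median -0.19). Targets of p53, the DNA damage regulator, gave 9 higher and 4 lower of 29 for CIA against Cont (median 0.06): Plk3, a stress kinase, had 113 CPM in CIA and 32.0 CPM in Cont (1.82), and Trp53inp1 42.8 CPM in CIA and 126 CPM in Cont (-1.55). Immediate early genes gave 6 higher and 14 lower of 37 (median -0.35), among them Atf3 at 175 CPM in CIA and 573 CPM in Cont (-1.72). The immediate early median was 0.098 over 23 genes with barcodes thinned before the rule.

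Glycolysis and hypoxia genes gave 6 higher and 6 lower of 26 for CIA against Cont (median 0.09), beside 13.2% and 19.6% over all genes. Gapdh stood at 1303 CPM in CIA and 586 CPM in Cont (1.15). Lysosome and nuclease genes gave 2 higher and 3 lower of 21 (median -0.17). Genes of the unfolded protein response gave 4 higher and 4 lower of 30 (median 0.17).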
